A study of Mus musculus with 8 samples.

Results

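Dense stretches of open chromatin were runs of neighbouring ATAC-seq regions in splenic natural killer (NK) cells. Overlapping peaks of the 8 deposited lists (1 bp or more in common) were joined, and the 50044 regions with a peak in 2 or more lists were kept. Neighbouring regions were chained across gaps of 5 kb or less. A chain of 6 or more regions was a dense stretch. There were 284 such stretches among 33455 chains of any size, and they held 2017 of the 50044 regions, or 4.03%. The regions were selected on the presence and spacing of called peaks, so their number, spacing, presence and score beside other regions are given as description. Tests were run only on WT against MUT. The selection took no account of genotype, but a region called in 1 genotype alone counted toward the 6 regions of a stretch.

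ATAC-seq uses a transposase that inserts sequencing adapters into accessible DNA. The libraries came from 4 mice wild-type for HSF1 (WT, replicates 4, 5, 6 and 7) and 4 mice whose HSF1 has alanine in place of serines 303 and 307 (S303/7A, MUT, replicates 26, 27, 28 and 29). Spleens were taken at steady state, cells were enriched with DX5 beads and sorted as CD49b+ CD3e-, and 200000 cells of each mouse entered the assay. The labels give no strain, age, sex or litter, and whatever else separated the 2 sets of mice cannot be told apart from the genotype. No group was treated, and no separate clones or pools are named.

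NK cells are innate lymphocytes that kill infected or transformed cells and release interferon gamma. Genes that define a cell type often lie among many closely spaced enhancers and promoters, which appear in ATAC-seq as runs of peaks. HSF1 is the transcription factor of the heat shock response, and phosphorylation of serines 303 and 307 is known to restrain it. It binds heat shock elements, which are inverted repeats of GAA, upstream of chaperone genes.

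The lists held 42695 to 49627 peaks of 200 to 3680 bp, with no read counts, so the sequencing depth is unknown and a missing peak is a peak that was not called. The sorted cells were checked at gene starts. A peak lay over a promoter window (250 bases before to 50 after a RefSeq start) in all 8 lists for 8 of 9 NK markers, the exception being Klrb1c with 7 lists. Markers of other cells were open in all 8 lists for 2 of 8 B cell genes, 3 of 9 T cell genes, 3 of 9 myeloid and dendritic cell genes, 1 of 6 ILC1 genes, 2 of 7 basophil and mast cell genes and 1 of 9 erythroid and platelet genes. Of the 48 markers of other cells 12 were thus open in all 8 lists, among them Cd3g, Cd5, Lef1, Pou2af1, Cr2, Itgax, Cebpa and Flt3, and 24 in 0 lists, among them Ebf1, Cd3d, Cd8a, Foxp3, Lyz2, Mpeg1, Gata1 and Klf1. More MUT than WT lists had such a peak for 10 of the 48 (4 of them ILC1 genes, such as Cxcr6 and Il7r with 2 WT and 4 MUT lists), and more WT lists for 1. The part of other cells in the comparisons of genotypes was not tested. Markers with no entry in the RefSeq promoter table are not counted here.

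Of the 224 promoters whose start lay in a dense stretch, from 168 genes, 4 sequences are printed. They are the 250 bases upstream of a RefSeq start in GRCm38.p6, 5′ to 3′ on the strand of the gene. The first is Tbx21, the NK lineage factor with the largest number of regions in its stretch (chr11:97115332-97115581, minus strand). Cd82 (chr2:93462503-93462752, minus strand) and Ctsd (chr7:142387828-142388077, minus strand) also had a peak over the start in 8 lists. Coro2a (chr4:46566441-46566690, minus strand) had a peak over this start in 0 lists, although 12 open regions surround it. Capitals mark a RUNX match in Cd82 and a heat shock element match in Coro2a. Eif4enif1 and Csk, in stretches of 33 and 12 regions, also had a peak over the start in 8 lists. Their promoters, which like those of Tbx21 and Ctsd held no match to mark, are not printed. The printed 4 are not a representative sample.
Tbx21: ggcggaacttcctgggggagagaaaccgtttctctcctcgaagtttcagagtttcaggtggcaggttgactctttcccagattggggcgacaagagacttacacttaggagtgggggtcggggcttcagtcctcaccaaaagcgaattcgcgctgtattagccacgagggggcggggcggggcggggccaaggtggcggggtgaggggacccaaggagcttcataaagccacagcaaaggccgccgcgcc
Cd82: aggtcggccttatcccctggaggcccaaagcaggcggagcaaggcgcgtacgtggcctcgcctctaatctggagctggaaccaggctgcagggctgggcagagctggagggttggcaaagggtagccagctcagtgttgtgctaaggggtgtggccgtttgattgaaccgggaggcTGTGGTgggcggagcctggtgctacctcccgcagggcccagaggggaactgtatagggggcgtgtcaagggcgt
Ctsd: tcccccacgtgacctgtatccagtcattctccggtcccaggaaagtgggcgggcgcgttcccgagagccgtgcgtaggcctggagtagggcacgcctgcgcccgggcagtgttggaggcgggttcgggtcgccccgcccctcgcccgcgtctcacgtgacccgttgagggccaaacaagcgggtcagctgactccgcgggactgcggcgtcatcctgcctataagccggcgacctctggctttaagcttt
Coro2a: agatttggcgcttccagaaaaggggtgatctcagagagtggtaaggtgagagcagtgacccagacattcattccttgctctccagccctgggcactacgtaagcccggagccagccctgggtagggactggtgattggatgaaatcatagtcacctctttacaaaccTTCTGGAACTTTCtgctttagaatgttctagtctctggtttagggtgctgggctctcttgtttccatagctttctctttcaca

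Motifs were searched on both strands in these promoters and in all 21263 promoters of the same length. The heat shock element (3 alternating inverted GAA units, each after a gap of 2 bases, whose forms starting with GAA or TTC are each other's reverse complement) was in 2 of 224 promoters (0.893%) against 0.386% of all. The RUNX letters TGTGGT were in 13.8% against 12.4%, the AP-1 letters TGANTCA in 7.59% against 6.13%, and the T-box letters AGGTGTGA in 0.893% against 0.997%. The ETS letters CCGGAAGT, which contain the shorter GGAA, were in 1.79% against 3.79%, GGAA itself in 91.5% against 93.2%, and CCCTC, a core of CTCF sites, in 68.8% against 64.4%. These promoters had a median GC content of 58.8% against 55.6% for all, and a median CpG observed-to-expected ratio of 0.633 against 0.530. A match is a description of the letters and not a binding site.

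MicroRNA genes also fell in these stretches, 17 of the 1005 in the RefSeq table, in 14 stretches. For comparison, 317 of 21887 protein-coding genes (1.45%) overlapped a dense stretch. No excess of microRNA genes was tested. The 5 mature sequences below were chosen after the overlap was seen, because they are microRNAs well known in lymphocytes. Capitals mark the seed, bases 2 to 8.
mmu-miR-142a-5p: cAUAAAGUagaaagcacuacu
mmu-miR-142a-3p: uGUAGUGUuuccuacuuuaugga
mmu-miR-21a-5p: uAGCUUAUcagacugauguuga
mmu-miR-132-3p: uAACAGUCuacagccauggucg
mmu-miR-212-3p: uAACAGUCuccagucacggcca
The hairpin of miR-142a, an abundant microRNA of blood cells, lay at chr11:87756864-87756927 in a stretch of 9 regions whose nearest protein-coding gene, Tspoap1, lay 715 bp away. The hairpin of miR-21a, induced by lymphocyte activation, lay at chr11:86584067-86584158 in a stretch of 7 regions over Vmp1. miR-132-3p and miR-212-3p share the seed AACAGUC, and both hairpins lay in 1 stretch of 6 regions over Hic1, Ovca2 and Dph1.

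Most dense stretches were short runs. There were 144 with 6 regions, 73 with 7 and 24 with 8, and 23 had 10 or more. Just outside the threshold lay 336 chains of 5 regions, with a median span of 9399 bp, 72.0% of regions in all 8 lists and a median region score percentile of 25.7. Just inside it, the chains of 6 regions had a median span of 12028 bp, 74.9% of regions in all 8 lists and a median score percentile of 25.7. Sizes ran across the threshold without a break. Over all 284 stretches the median span was 14035 bp (range 3413 to 80195), the median gap between regions 1469 bp, and a median 23.4% of the span was covered by regions. In 179 stretches the widest gap exceeded 4000 bp, so these held together near the 5 kb limit.

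The score of a peak is the authors' own value, whose meaning is not given in the sources used here, and it was used as a percentile within its own list. Peaks of dense stretches ranked low. The median percentile was 63.9 for peaks of single regions, 48.1 in chains of 2, 30.9 in chains of 5, 30.4 in chains of 6 and 24.1 in chains of 8. Between 72.9% and 76.7% of the peaks in dense stretches lay below the middle of their list, and 27.1% to 29.6% in its lowest 10%. They were also narrower, with a median width of 354 to 370 bp by library against 403 to 424 bp for other peaks. The lower rank was present at matched width as well, in all 8 libraries in each of 6 width classes. At 200 to 249 bp the median percentile was 3.68 against 15.5, and at 700 bp or more it was 55.5 against 78.4. A low score is not closed chromatin. No dense stretch was left when only the upper 50% of each list by score was kept, and 122 were left when each list was cut by score to the size of the smallest. A chaining gap of 3 kb gave 66 stretches and one of 10 kb gave 1177.

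**Figure D1:**
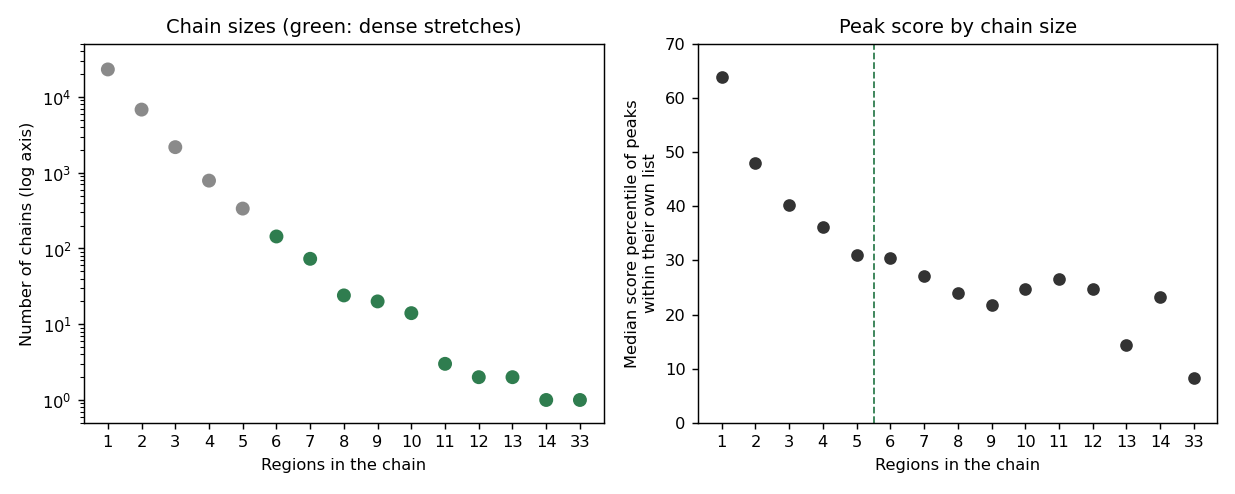
Left, the number of chains (log axis) by the number of regions in the chain, with dense stretches in green. Right, the median score percentile of peaks within their own list by chain size, with the dashed line at the threshold. The percentile falls from 63.9 for single regions to 30.4 for chains of 6, and the chain of 33 regions lies at 8.22.

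The regions sat mainly inside genes. Within 1 kb of a gene start lay 13.8% of them, in gene bodies 57.3% and between genes 28.9%, against 22.3%, 45.3% and 32.4% of the other regions. Regions at gene starts had a median score percentile of 25.6 and a median width of 492 bp in dense stretches, against 68.0 and 818 bp elsewhere. Of the 284 stretches, 240 overlapped a protein-coding gene, 35 were assigned to the nearest gene end within 50 kb and 9 had none. In all 348 of 21887 protein-coding genes (1.59%) were linked. Overlap and distance say nothing of the gene on which a region acts. At least 1 region at a gene start was present in 130 stretches, and in 49 the highest-scoring region was at a gene start. Chromosome 11 carried 31 stretches, or 10.9% of them with 7.34% of all regions, whereas chromosomes 3 and X carried 4 each and chromosome Y none.

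The run of 33 regions over Sfi1 and Eif4enif1 (chr11:3123199-3203393) stood apart from all others, the next holding 14. Sfi1 encodes a centrin-binding protein of centrosomes and Eif4enif1 a transporter of a translation initiation factor. A peak was called in all 8 lists in 26 of the 33 regions, yet their median score percentile was 6.35. Covered length was 15181 to 17010 bp in the WT libraries and 15391 to 16797 bp in the MUT libraries, so the groups overlapped. Sfi1 is known in mouse for near-identical copies elsewhere in the genome, and reads that map to several of them make this stretch uncertain.

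After it came Nfatc1 with Atp9b (14 regions), Tbx21 and Cd82 (13 each), and Csk and Coro2a (12 each). Nfatc1 is a calcium-regulated transcription factor, Csk a kinase that holds Src-family kinases inactive, Cd82 a tetraspanin and Coro2a an actin-binding coronin. Stretches of 11 regions lay at Ccr7, a chemokine receptor for lymph node entry, at Ctsd with Ifitm10, where Ctsd encodes the lysosomal protease cathepsin D, and at Fli1, an ETS-family factor of blood cells. Those of 10 regions included Pxn, a focal adhesion adaptor, Fcgr2b, an inhibitory Fc receptor, Gimap4 with Gimap9, lymphocyte GTPases, and H2-Aa with H2-Eb1, chains of MHC class II. MHC class II, Fcgr2b and Ccr7 are also typical of B and dendritic cells, and the part of such cells in these stretches was not tested. Of the B cell, T cell, myeloid, ILC1, basophil and erythroid markers, 0 of 60 were linked to a dense stretch, which is near the background of 1.59% of all protein-coding genes.

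Transcription factors of the NK lineage were linked to dense stretches in 8 of 24 cases (33.3%), beside 1.59% of all protein-coding genes. They were Tbx21, Runx3, Gata3, Tcf7, Zbtb16, Zeb2, Ikzf1 and Irf8, whereas Eomes, Ets1, Runx1, Bach2 and Tox had none. The list was drawn up with earlier results of these data known, so the share is a description. With the lists cut to equal size, 3 of the 8 stayed linked (Gata3, Zbtb16 and Zeb2), and with a gap of 3 kb 2 did (Tbx21 and Zbtb16). Tbx21 encodes T-bet, which drives NK maturation, and its stretch ran over chr11:97101766-97133674. Peaks covered 5994, 6099, 6023 and 5596 bp in the WT libraries and 6359, 6310, 6036 and 5425 bp in the MUT libraries. The groups overlapped, and 11 of the 13 regions had a peak in all 8 lists. The region over the start printed above ranked low, at percentile 8.59, and the highest, at 61.6, lay at chr11:97118111-97118848, upstream of the start and between genes.

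Runx3, a factor of cytotoxic lymphocytes, had 2 dense stretches. The stretch of 9 regions lay over the gene (chr4:135149864-135169782) and that of 7 regions lay between genes, 39547 bp from it (chr4:135066786-135081098). The first covered 4057, 4583, 4178 and 4112 bp in WT and 4554, 4490, 4578 and 3690 bp in MUT, with MUT replicate 29 lowest of all. Its first region, chr4:135149864-135150115, had a peak in 3 MUT and 0 WT lists. The strongest region of the pair, at percentile 85.9, lay in the gene body at chr4:135168887-135169782 and was called in all 8 lists. For Zeb2, a factor of late NK maturation, peaks covered 3302, 3343, 2860 and 3370 bp in WT and 3051, 3358, 3111 and 2436 bp in MUT, again overlapping. Gata3, with 8 regions, covered 3141 to 3540 bp in WT and 3337 to 3453 bp in MUT. Tcf7, also with 8 regions, ranged from 1656 to 2770 bp in WT and from 1698 to 3025 bp in MUT.

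Among activating receptors and their adaptors, 5 of 20 were linked (25%, beside 1.59% of all protein-coding genes): Klrd1, Klrb1c, Cd244a, Hcst and Tyrobp. Klrd1 encodes CD94, and it shared 9 regions with the lectin receptor Klre1 (chr6:129577756-129598494). Peaks there covered 3788, 4047, 4183 and 3983 bp in WT and 3667, 4159, 3476 and 3648 bp in MUT. In MUT, 3 libraries lay below all WT libraries, and MUT replicate 27 lay above all WT libraries but replicate 6. The adaptors Hcst (DAP10) and Tyrobp (DAP12) lay with Nfkbid in 1 compact stretch of 9 regions, which covered 3048 to 3224 bp in WT and 2833 to 3258 bp in MUT. Klrb1c, the NK1.1 antigen, had 7 regions beginning 7946 bp from the gene, and its covered length was 2551, 2775, 2651 and 2232 bp in WT against 2121, 2285, 2489 and 2012 bp in MUT. MUT replicates 26 and 29 lay below every WT library, but the groups overlapped. Of the 20 genes on the inhibitory receptor list 1 was linked (5%), Klrb1b, by a distance of 4800 bp, and 0 of 20 overlapped a dense stretch.

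Effector, cytokine and chemokine genes were linked in 7 of 20 cases (35%), beside 1.59% of all protein-coding genes. They were Ifng, Tnf, Ccl3, Ccl4, Ccl5, Nkg7 and Srgn. The cytotoxic genes Prf1 and Gzmb had none. With the lists cut to equal size 3 of the 7 stayed linked (Ccl5, Tnf and Ifng), and with a gap of 3 kb 1 did (Srgn). Ccl3 and Ccl4, chemokines released by activated NK cells, shared a stretch of 6 regions (chr11:83648597-83663784). It covered 3369, 3701, 3593 and 3550 bp in WT and 3479, 3805, 3637 and 3671 bp in MUT, with overlapping groups. Ifng, interferon gamma, was linked by distance: 6 regions between genes, 9868 bp from the gene (chr10:118455762-118471052), covered 2775, 2676, 2563 and 2648 bp in WT and 2783, 2775, 2638 and 2308 bp in MUT. Here 5 of 6 regions had a peak in all 8 lists, and their median percentile of 56.4 was high for a dense stretch. Tnf lay with Lst1, Lta and Ltb, its neighbours in the MHC, in 7 regions covering 2118 to 2616 bp in WT and 2489 to 2662 bp in MUT.

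Cytokine receptor and JAK-STAT genes had 4 of 26 linked (15.4%): Il2rb, the shared receptor chain for interleukins 2 and 15, Il18r1, Il10ra and Jak3. At equal list size Jak3 alone of the 4 stayed linked, and at a gap of 3 kb Il2rb alone. Junb, Egr1 and Myc were the 3 of 18 linked immediate early genes (16.7%), Nfkb1 and Traf1 the 2 of 18 in NF-kB signalling (11.1%), and Selplg and Cd69 the 2 of 20 in homing (10%). Junb lay with Hook2 in 10 regions and covered 4366 to 4670 bp in WT and 4517 to 4895 bp in MUT. In the housekeeping lists, Sdhb was 1 of 20 oxidative phosphorylation genes and 0 of 24 ribosomal protein genes were linked. Of the list of 24 heat shock genes, which holds Hsf1 itself and chaperone genes such as Hspa1a, Hspa1b, Hspa8, Hsp90aa1, Hsph1 and Dnajb1, 0 were linked to a dense stretch. A count of 0 of 24 allows a share of up to 14.2% (upper limit of the exact 95% binomial interval, counting error only). The share over all protein-coding genes, the background for each of these lists, was 1.59%, and 0 of 24 is near it.

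**Figure D2:**
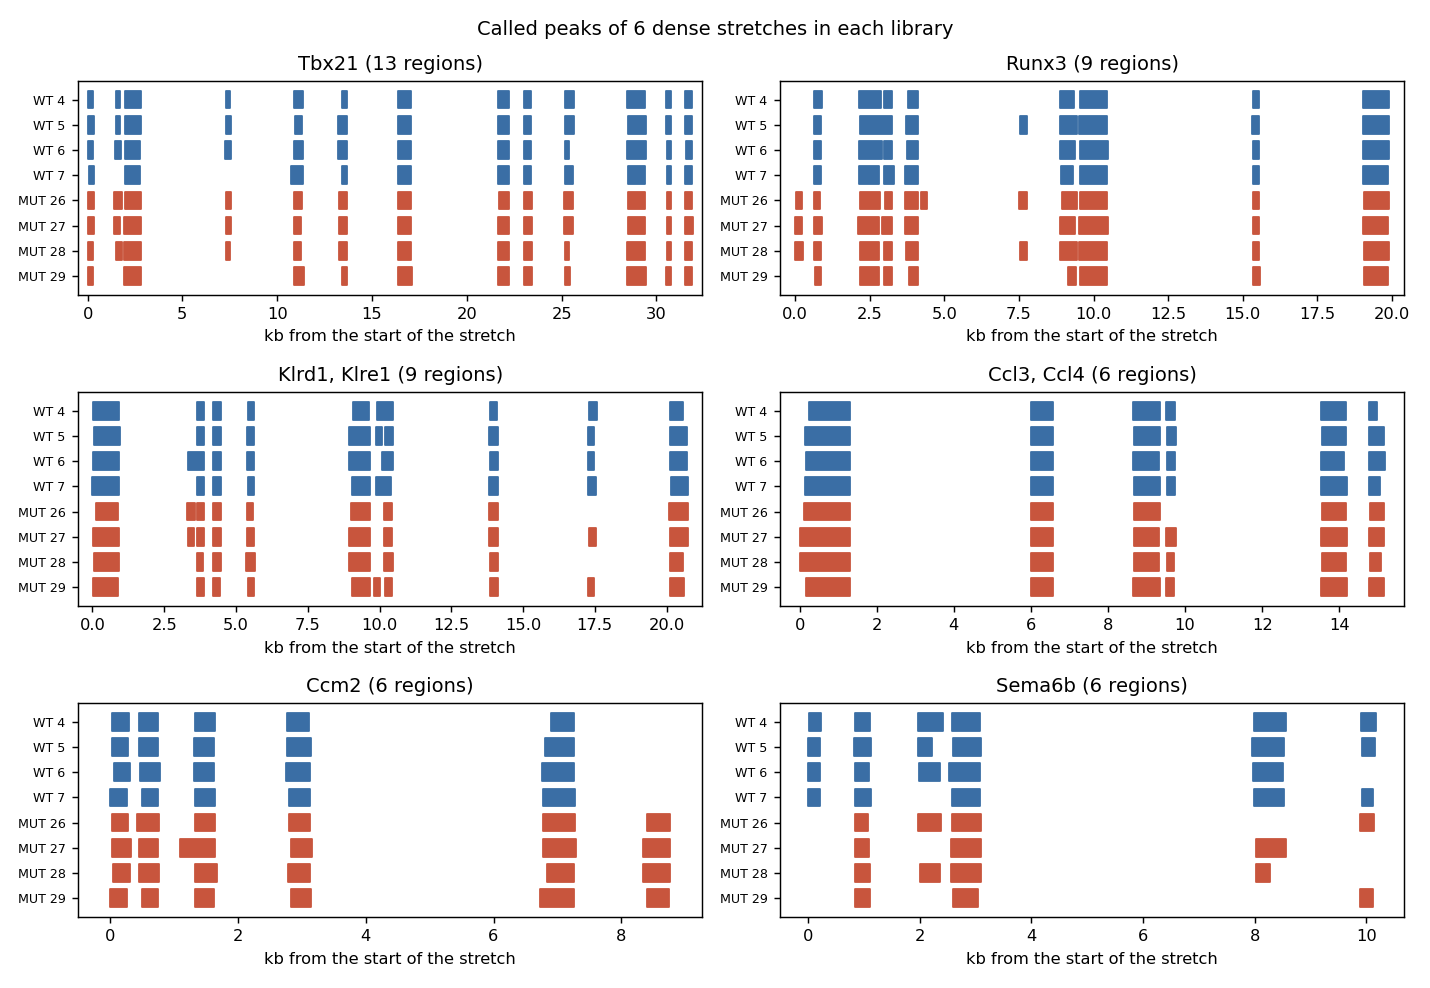
Called peaks of each library in 6 dense stretches, with WT libraries in blue and MUT libraries in red, against the distance in kb from the start of the stretch. Most blocks line up in all 8 rows. The last block of Ccm2 is present in the 4 MUT rows only, and the first block of Sema6b in the 4 WT rows only.

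Presence was evenly split between the genotypes. A peak in all 8 lists was present in 1482 regions of dense stretches (73.5%) and in 68.7% of the other regions. More MUT than WT lists held a peak in 212 regions, more WT lists in 218, and 1587 were equal. Among the other regions the split was uneven, 15.04% with more MUT and 9.94% with more WT lists, against 10.5% and 10.8% in dense stretches. In dense stretches, 10 regions were called in every MUT list and in no WT list (4 of 4 against 0 of 4; 0.496%, exact 95% binomial interval 0.238 to 0.910), beside 0.583% of all regions. The reverse held for 6 regions (0.297%, 0.109 to 0.646), beside 0.178% of all. Both backgrounds lay inside these intervals, which cover counting error only. Such regions also counted toward the 6 that make a stretch, so these shares partly follow from the rule. The smallest Fisher exact p for 1 region, 4 libraries against 4, is 0.0286 before adjustment.

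These 16 regions lay in 15 stretches, and no stretch held more than 1 of either kind. MUT-only regions lay at Ccm2, Cd244a, Hrh2, Pik3r1, Clcf1 with Pold4, Cd82, Coro2a, Klrb1a, Ctsd with Ifitm10, and Lrrc25. WT-only regions lay at Cd244a, Tagap, Sema6b, Ndst1, Pxn and Iqsec1. Those at Ccm2, Hrh2, Klrb1a, Tagap, Sema6b and Ndst1 lay in stretches of 6 regions, which reached the threshold only with that region counted. Cd244a, the receptor 2B4, was the stretch with 1 of each: chr1:171551384-171551741 was WT-only and chr1:171562530-171562746 MUT-only. Nearly all of these regions ranked low, and the region in Ccm2 was the highest, at percentile 45.5. Genes outside the naming rule were picked here with their values known.

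Over libraries, dense stretches took a slightly smaller part of the MUT lists. They held 4.12% ± 0.0678 of the peaks of a WT list and 3.99% ± 0.0838 of a MUT list (SD, n = 4 each; difference -0.135 percentage points, exact two-sided permutation p = 0.0857, adjusted p = 0.171 over 6 library tests, Benjamini-Hochberg). Their share of the covered bases was 3.54% ± 0.0263 in WT and 3.47% ± 0.0470 in MUT. Every WT library lay above every MUT library, with the smallest p this design allows (exact permutation p = 0.0286), but the difference did not pass adjustment (exact permutation test, adjusted p = 0.171). A peak was called in 88.7% ± 1.68 of the regions of dense stretches in WT and 89.1% ± 3.96 in MUT (p = 0.857, exact permutation). In the other regions these shares were 84.5% ± 2.56 and 87.3% ± 4.18 (exact permutation p = 0.371). The excess of dense over other regions was thus 4.21 ± 1.32 percentage points in WT and 1.82 ± 1.09 in MUT, a difference of -2.39 that did not pass (exact permutation p = 0.0571, adjusted p = 0.171). By library it was 4.11, 3.82, 2.88 and 6.03 points in WT and 3.37, 1.07, 1.84 and 1.02 in MUT. MUT replicate 26 lay among the WT libraries and the other MUT libraries below all of them. MUT replicate 27, the longest list, had the highest share in both kinds of region (93.8% and 92.7%), and WT replicate 7, the shortest, the lowest in the other regions (80.9%). With the lists cut to equal size and the stretches rebuilt, the difference of -2.39 became -6.60 (exact permutation p = 0.171). That cut was by score and took no peak from WT replicate 7, the shortest list. Peaks of dense stretches ranked low, so -6.60 is not a difference corrected for list length. With a gap of 3 kb the difference was -3.93 (exact permutation p = 0.0286, adjusted p = 0.0857) and with 10 kb -0.872 (exact permutation p = 0.257). The mean score percentile was 31.1 ± 0.826 for WT libraries and 31.0 ± 0.477 for MUT libraries (exact permutation p = 0.886).

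**Figure D3:**
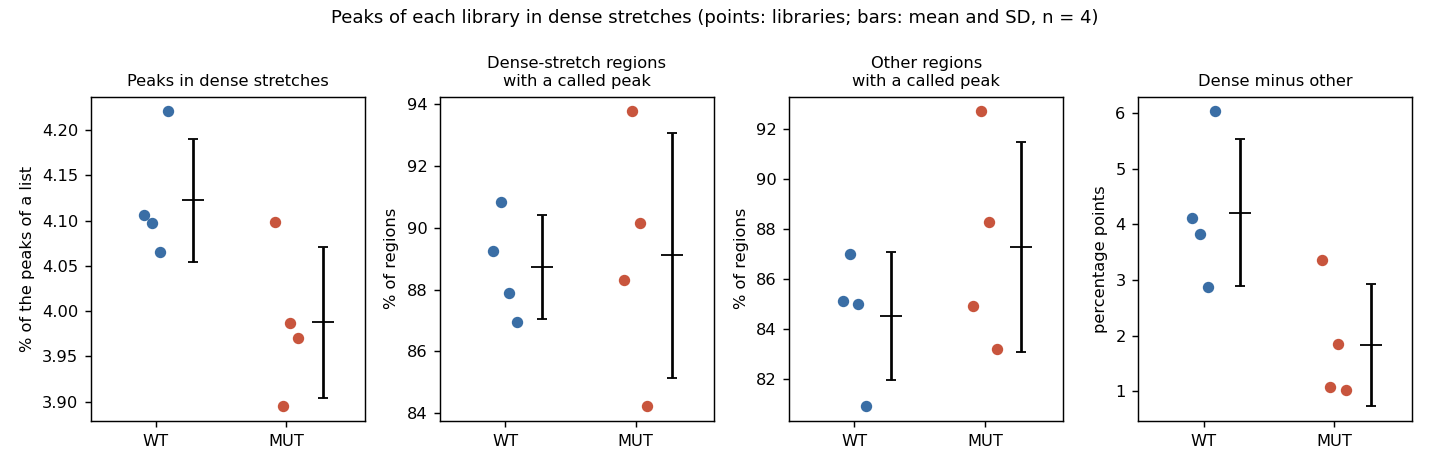
Each point is a library, with the mean and SD of each genotype (n = 4) beside it; axes do not start at 0. From left to right, the share of a list's peaks in dense stretches, the share of dense-stretch regions with a peak, the same for other regions, and their difference in percentage points. The groups overlap in all 4 panels, and the difference has means of 4.21 in WT and 1.82 in MUT.

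Single lists carried fewer of these stretches. With the same chaining applied to the peaks of 1 list, 212, 242, 208 and 200 chains of 6 or more peaks were found in WT and 207, 259, 230 and 176 in MUT (mean 215.5 ± 18.4 against 218 ± 35.2, p = 0.971 by exact permutation). Of the 284 stretches, 83 were met by such a chain in 8 of 8 lists and 11 in none. In 2 of the 284 stretches all MUT lists and no WT list had such a chain, and in 0 the reverse. No share over all chains was computed beside these counts, so they are a description and not a difference between genotypes. Built from the 4 WT lists alone there were 226 stretches and from the 4 MUT lists alone 223. Of the former 178 (78.8%) overlapped one of the latter, and 177 (79.4%) of the latter one of the former.

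The total length covered by peaks in each stretch was compared between genotypes with limma on log2(bp + 200), after scaling each library to the median total. The fit ran over all 33455 chains with Benjamini-Hochberg adjustment, and the log2 scale understates changes of short lengths. Among the 284 dense stretches 1 was higher in MUT, beside 0.753% of all chains, and 1 was lower, beside 0.269% of all. Each is 0.352% of the dense stretches, near the background. Both chains, at Ccm2 and Sema6b, reached 6 regions only with a MUT-only or WT-only region counted. That region also adds to the length tested, so these shares partly follow from the rule. The median log2 difference of the dense stretches was -0.02, and that over all chains also -0.02.

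Ccm2, a scaffold protein of a complex known for its role in blood vessel walls, was the stretch with more covered length in MUT (chr11:6559609-6568372). Its peaks covered 1590, 1685, 1745 and 1666 bp in WT and 2122, 2401, 2112 and 2003 bp in MUT, so that every MUT library exceeded every WT library. The log2 difference was 0.29 (SE 0.0398, limma adjusted p = 0.0122). Its first 5 regions were called in all 8 lists, and the sixth, chr11:6567951-6568372 in the gene body, in the 4 MUT lists only. A dense stretch needs 6 regions, so this chain counts as dense only through that MUT-only region. The same region adds to the covered length in MUT. With only the upper 50% of peaks by score in each list the difference was 0.0047 and did not pass.

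Sema6b, a transmembrane semaphorin better known from axon guidance, had less covered length in MUT (chr17:56131908-56142089). Peaks covered 2314, 2073, 1926 and 1737 bp in WT and 1412, 1315, 1376 and 925 bp in MUT, again with no overlap. The log2 difference was -0.65 (SE 0.104, limma adjusted p = 0.0228). Of its 6 regions 2 had a peak in all 8 lists, and 4 had more WT than MUT lists, the first of them WT-only. This chain, too, reaches 6 regions only with its WT-only region counted. The call was lost without WT replicate 4 (limma adjusted p = 0.0581), WT replicate 5 (0.0621) or MUT replicate 27 (0.0680), and without scaling (-0.61, limma adjusted p = 0.116). With the upper 50% of peaks by score the sign turned (0.44, limma adjusted p = 0.801).

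The other 43 of the 45 named stretches did not pass. They ranged from -0.22 at Klrb1c, with the lowest adjusted p among them (limma adjusted p = 0.208), to 0.22 at Ccr7 (limma adjusted p = 0.450). The values for NK genes were -0.02 at Tbx21 (limma adjusted p = 0.891), -0.14 at Klrd1 with Klre1 (0.380), -0.15 at Zeb2 (0.499), -0.06 at Ifng (0.601) and 0.07 at Il18r1 (0.628). At an unadjusted p under 0.05, 9 stretches were higher and 37 lower in MUT, where all chains had 6.09% higher and 5.16% lower. That split rests on the scaling. Without it 24 of the 284 were higher and 6 lower, beside 7.86% and 2.69% of all chains. In that setting 10.6% of dense stretches and 10.6% of all chains lay under 0.05. With libraries scaled to the regions in all 8 lists 21 were higher and 23 lower, beside 7.15% and 3.89% of all chains. The split over all chains thus moved with the scaling too. With the lists cut to equal size 2 were higher and 31 lower, beside 5.770% and 4.502% of all chains. The median log2 difference was then -0.07 against -0.01 for all chains. This cut was by score and took no peak from WT replicate 7, the shortest list. Peaks of dense stretches ranked low, so the split at equal size is not corrected for list length. The direction over dense stretches as a class therefore differed between settings.

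In unscaled length, the genotypes did not overlap in 13 dense stretches. In 10 all MUT libraries were higher (3.52% of dense stretches, beside 4.49% of all chains) and in 3 all were lower (1.06%, beside 1.55%). Besides Ccm2, the higher ones included Zfp36l2, an mRNA decay factor, at 1901 to 2534 bp in WT and 2723 to 3043 bp in MUT (log2 0.33, limma adjusted p = 0.100). Vmp1, the stretch that holds the miR-21a hairpin, covered 2270, 2068, 2312 and 2050 bp in WT and 3078, 2726, 2569 and 2614 bp in MUT (log2 0.27, limma adjusted p = 0.209). Besides Sema6b, the lower ones were Ndst1, a heparan sulfate enzyme, and Gp1bb with Septin5. These genes, too, were picked with their values known, and none but Ccm2 and Sema6b passed the test. The stretches at Ccm2, Sema6b and Ndst1 reached 6 regions only with a MUT-only or WT-only region counted. That region also adds to the length compared, so the shares of stretches without overlap partly follow from the rule. The stretch of miR-142a covered 3396 to 3590 bp in WT and 3403 to 3686 bp in MUT.

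**Figure D4:**
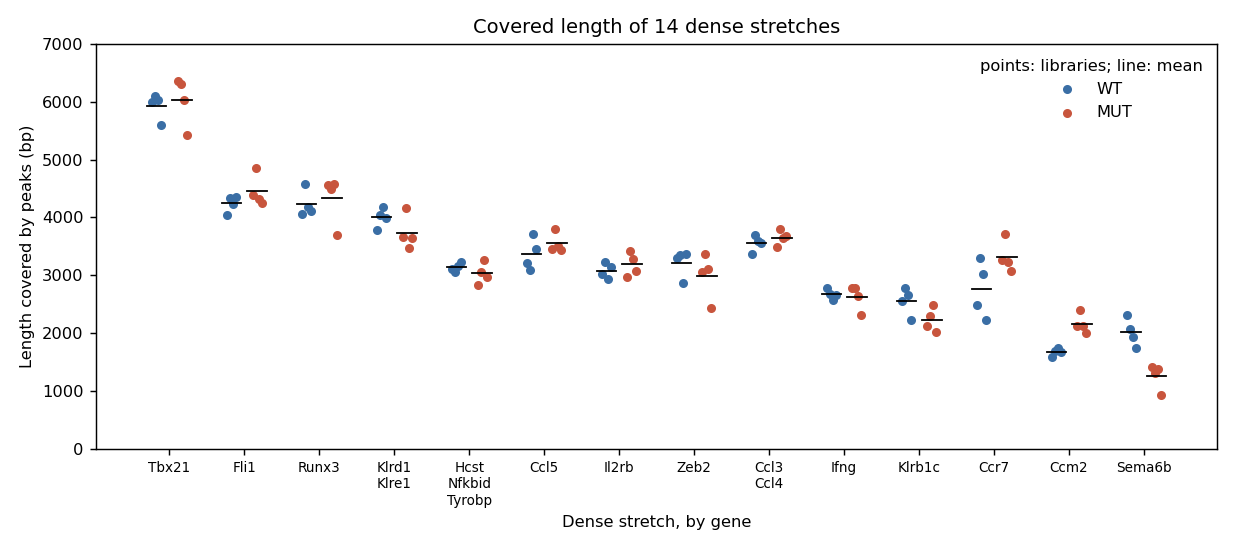
Length in bp covered by peaks (unscaled) in 14 dense stretches, with a point per library, WT in blue, MUT in red, and a line at each mean. The genotypes separate at Ccm2 and Sema6b and overlap at the other 12.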

How the data were processed

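ATAC-seq libraries of splenic NK cells of 4 WT and 4 MUT mice were analysed. The deposited lists, 1 per library and not pooled, give each peak a position and an unnamed score, which is the authors' own value. DiffBind 3.0.12, DESeq2, Bowtie2 2.3.4.1 and Trimmomatic are named as tools, without roles, and GRCm38 (mm10) as the build, per the submitters' processing notes. Not given in the sources used here are the peak caller and its threshold, the filters on reads and whether reads were shifted for the transposase. Without counts in the files, no count model was run.

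Regions were merged at 1 bp, kept with 2 or more lists and chained at 5 kb. Genes, promoters and miRNAs came from RefSeq tables of GRCm38.p6 (21887 protein-coding genes). No genome was used here, so no peak sequence is printed. A chain was linked to the genes it overlaps, otherwise to the nearest gene end within 50 kb. Library values were compared by exact two-sided permutation of the difference of means (70 assignments, smallest p 0.0286). The length covered by peaks per chain, in log2(bp + 200) computed from the deposited lists, was tested with limma 3.58.1 (trend) in R 4.3.3, at an adjusted p of 0.05. Each mouse is a replicate, and no replicate number is shared between the genotypes. Python 3.11.15 and scipy 1.17.1 were used, and the scripts were tested on simulated data.

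The members and the 18 gene lists (7 of them cell type markers) were chosen with earlier results of these data known. Named were the 15 chains with most regions, the 5 longest, those past the limma threshold, chains with 2 or more group-only regions, those of 34 fixed NK, signalling and heat shock genes, and list genes. Alternatives changed the number of lists, gap, number of regions, scaling, pseudocount, filter, list size, score, width, link and library. After seeing the data, 4 were added: 3 without the chain of 33 regions, and the widest 50% of each list.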

Additional observations from a re-analysis of the deposited data

Results flagged for a closer look

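In 5 of the 102 groups of 4 libraries looked at, 1 library lay far from the other 3. Chance flags about 1 in 20 groups. The mean score percentile of peaks in dense stretches was 32.3 in WT replicate 7, the shortest list, and 30.9 in the next WT library. The stretch over Lst1, Lta, Ltb and Tnf covered 2489 bp in MUT replicate 26 and 2634 bp or more in the other MUT libraries. That over Zeb2 covered 2860 bp in WT replicate 6 and at least 3302 bp in the other WT libraries. The stretch of 9 regions over Runx3 covered 3690 bp in MUT replicate 29 and at least 4490 bp in the other MUT libraries. Capzb, an actin capping protein, covered 2589 bp in WT replicate 4 and at least 3429 bp in the other WT libraries.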

How the results depend on the processing

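The number of dense stretches, 284 with 2017 regions, was 66 with 425 regions at a gap of 3 kb, 1177 with 9934 at 10 kb, 620 with 3697 at 5 or more regions, 67 with 642 at 8 or more, 122 with 812 at equal list size, 0 with 0 for the upper 50% by score, and 5 with 32 for the widest 50% (added after seeing the data). Without 1 library it was 268 to 281. At equal list size 43.0% of the stretches were met again, and the chain of 33 regions was not. The shares of peaks and of covered bases and the difference of dense and other regions kept their sign in all 18 alternatives each, and none passed adjustment (lowest adjusted p by exact permutation 0.0857). Their size moved: the difference of dense and other regions, -2.39, was -6.60 at equal size, -3.93 at 3 kb and -0.872 at 10 kb, the share of peaks -0.118, -0.0428 and -0.324, and that of covered bases -0.0661, -0.0183 and -0.131. The MUT minus WT share of regions with a peak, 0.372 points, reversed with peaks in 4 or more lists (-0.140), a 3 kb gap (-1.24) and equal size (-5.82), and ran from -1.18 to 2.00 without 1 library, negative without WT replicate 7 or MUT replicate 27. The mean percentile difference, -0.0980, reversed with 4 or more lists (0.161), a 10 kb gap (0.0428) and equal size (2.70), and ran from -0.283 to 0.311 without 1 library. The difference in chains of single lists, 2.50, reversed at 3 kb (-7.25), 8 or more regions (-1.50) and equal size (-45.8), and ran from -11.2 to 16.5 without 1 library. At equal size WT replicate 7, which loses no peak, keeps 200 such chains and the others 36 to 85. MUT-only regions, 10, numbered 2 at equal size, and WT-only regions, 6, numbered 4. Both numbered 0 in the upper 50%, where no dense stretch is left. The shares of such regions over all regions were not computed in these settings. Stretches past the limma threshold, 2, numbered 1 without scaling, where 258 of all 33455 chains were higher and 68 lower. In the upper 50% they numbered 8 of 260 (0 shared with the 2), where 214 of all 24411 chains were higher and 60 lower. They numbered 5 when only dense stretches were fitted, with no other chains to compare. Without 1 library they numbered 1 to 4. There were 1 without WT replicate 4 (263 of 33455 chains higher and 54 lower) and 4 without WT replicate 6 (421 and 131). Ccm2 passed in 8 of 8 fits without 1 library and Sema6b in 5 of 8. In the upper 50% Klrb1c reversed to 0.97 and Sema6b to 0.44. Linked inhibitory receptors fell from 5% to 0% when only overlap counted, and homing genes from 10% to 5%, as also with a nearest end within 10 kb. The causes were not tested. No paired analysis was possible because the genotypes share no replicate number. Library measures have no value in the upper 50%, where no region is left.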

Other observations

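Some dense stretches were called alike in every library. In 38 of the 284 each region had a peak in all 8 lists. They included stretches of 8 regions at Ankrd11, a chromatin regulator, at Akna and at Abcb9, and a stretch of 7 regions at Bhlhe40, a transcription factor of activated lymphocytes. Bhlhe40 covered 3618 to 3874 bp in WT and 3782 to 3874 bp in MUT (log2 -0.01, limma adjusted p = 0.969). Genes in this paragraph and the next were picked with their values known.

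The stretch over the largest number of genes lay in the histone cluster of chromosome 13 (chr13:23745519-23763827). Its 7 regions, all called in 8 lists, covered 8 replication-dependent histone genes, H1f1, H2ac4, H2bc3, H3c1, H3c2, H3c3, H4c1 and H4c2. Covered length was 4649 to 5139 bp in WT and 4617 to 5083 bp in MUT (log2 -0.03, limma adjusted p = 0.832). Histone genes are near-identical copies, and the placing of reads among them is uncertain. The most compact stretch, at Cpt1a, the carnitine palmitoyltransferase of mitochondrial fatty acid uptake, packed 6 regions into 3413 bp, and the next-to-shortest ones lay at Zc3hc1, Zfp213 and Dusp2 with Astl. Among all stretches the highest single region, at percentile 99.0, lay in the stretch over Ganab, Ints5, Lbhd1 and Uqcc3, whose median percentile was 37.5.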
